A study of Mus musculus with 4 samples.

Results

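In cells of the mouse erythroblast line G1E, 523 genes (4.04% of those tested) had lower RNA with the form labelled GATA-1 2RA than with the wild-type form, GATA-1 WT, and 431 (3.33%) had higher RNA. These 954 genes (7.38%) are all the rows of the authors' deposited table for this pair, out of 12931 genes the authors tested and 2982 genes found in any of their 6 tables. Red cell genes led the decreases: the alpha-globin gene Hba-a1 stood at 12001 scaled reads with GATA-1 WT and 32.9 with GATA-1 2RA, and the heme enzyme gene Alas2 at 1154 and 2.14. Among the higher were the progenitor genes Kit, at 179 scaled reads with GATA-1 WT and 2218 with GATA-1 2RA, and Gata2, at 54.8 and 514. Of the listed genes of integrin adhesion and actin 17 of 19 were higher with GATA-1 2RA, of 86 examined. So were 9 of 10 of cytokine receptors and their signalling, of 47 examined, and all 9 of mast cells. Those 9 were of 41 mast cell genes examined, and 6 of them rest on 3 or fewer reads with GATA-1 WT.

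GATA-1 is a zinc finger transcription factor that binds GATA motifs in DNA. In maturing erythroblasts it turns on the genes of globins, heme synthesis and the red cell membrane, and it turns off genes of the progenitor state such as Gata2 and Kit. G1E cells were derived from mouse embryonic stem cells without functional Gata1, so they stall at a proerythroblast-like stage until GATA-1 is supplied. The study had 4 groups of G1E cells with 1 sample each: GATA-1 WT and GATA-1 2RA, which are compared here, a control genotype, and GATA-1 V205M. Every sample, control included, carried the label of a β-estrodiol induction, in the labels' spelling. V205M is known to weaken contact with the cofactor FOG-1, whereas the labels do not say what 2RA alters, how GATA-1 was introduced, or whether a group is a single clone. With 1 sample per group no difference could be checked against replicates, no p-value is given, and the 95% intervals given here cover counting error only.

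The table was made by the authors' own filter, which kept genes past 2-fold whose adjusted p was below 0.01. Nothing is read from a list's count against the share of all tested genes, 7.38%, because the filter used the same contrast. A gene absent from the table did not pass the filter or was not tested, and it has levels here only where another of the authors' tables holds them, as for 1554 genes including the listed ones. Levels are given as scaled reads, which are reads over each library's size factor. They are not per gene length, so levels are compared between groups and not between genes. Reads over the 954 genes came to 1213897 with GATA-1 WT and 723230 with GATA-1 2RA, with a median of 254.5 and 200.5 reads per gene. A total of 74 genes rested on 3 or fewer reads in either group, and the lowest deposited count was 1, so ratios to so few reads are given with their intervals. Log2 changes are GATA-1 2RA against GATA-1 WT after adding 1 scaled read to each.

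Gata1 itself was not listed, at 2652 scaled reads with GATA-1 WT and 1421 with GATA-1 2RA (log2 change -0.90), against 153 in the control and 613 with GATA-1 V205M. The part that this difference in Gata1 RNA plays in the results below was not tested. Esr1, the estrogen receptor gene, was not listed either, at 58.6 and 43.6 scaled reads. Zfpm1, which encodes FOG-1, had no level in any table. Of 13 erythroid markers 11 were listed, all lower with GATA-1 2RA, a count that rests on the contrast by which genes were listed. The 12 with a level summed to 80259 scaled reads with GATA-1 WT against 7574 with GATA-1 2RA. Of these sums Hbb-b1 alone gave 39108 and 2342. Epor, the erythropoietin receptor gene, was the erythroid marker that differed least, at 186 and 181 scaled reads. In bulk RNA, fewer cells of a type and less RNA per cell cannot be told apart.

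Changes spanned a wide range in both directions. The median log2 change was 1.90 among the higher genes (0.997 to 7.94) and -1.55 among the lower (-8.52 to -0.996). On this scale 207 higher and 151 lower genes differed by 4-fold or more, and 48 higher and 48 lower by 16-fold or more. Over all listed genes the median was -1.07. With trimmed mean (TMM) factors 431 listed genes were past 2-fold higher and 387 lower. Only listed genes were counted, so that shift towards GATA-1 2RA could remove lower genes but could not change the higher ones. Which direction would hold more genes under that scaling is thus not settled by these counts. The plot of levels in the 2 libraries shows genes of both directions at the highest levels. Aldoa, a lower gene, reached 52332 scaled reads with GATA-1 WT, and Actb, a higher gene, reached 41435 with GATA-1 2RA.

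**Figure D1:**
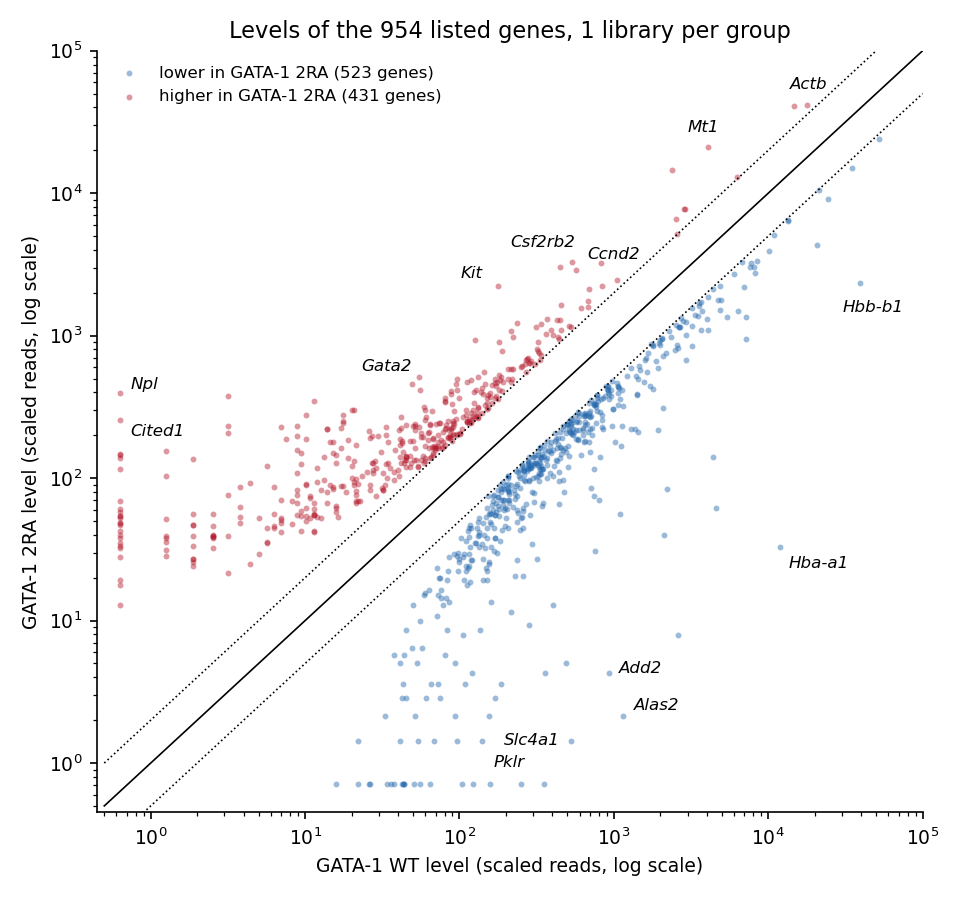
Level of each of the 954 listed genes with GATA-1 WT (x axis, scaled reads, log scale) and with GATA-1 2RA (y axis, scaled reads, log scale), 1 library per group, with the line of equal levels and dotted lines at a 2-fold difference. Hba-a1, Add2, Alas2, Slc4a1 and Pklr lie far below the line, and Npl and Cited1 rest on 1 read with GATA-1 WT.

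Globins had the lowest median of the 37 gene lists. They carry oxygen as 2 alpha-type and 2 beta-type chains around heme, and 4 of the 14 globin genes examined were listed, all lower, with a median log2 change of -6.57. Hba-a1 (chr11:32283511-32284465, GRCm38) went from 12001 to 32.9 scaled reads, a ratio of 365-fold (95% counting interval 274 to 499). Hba-a2 went from 2619 to 7.86. The beta-globins were lower by less: Hbb-b1 went from 39108 to 2342, a ratio of 16.7-fold (16.1 to 17.3), and Hbb-b2 from 4362 to 141. Against the control the order of the chains differed. Alpha-globin with GATA-1 2RA was below the control level, which was 1291 for Hba-a1 and 58.9 for Hba-a2, while beta-globin was above it, at 238 for Hbb-b1 and 35.5 for Hbb-b2. With GATA-1 V205M the level was 38.9 for Hba-a1, close to that of GATA-1 2RA, but 91.6 for Hbb-b1, far under it. The 2 alpha genes are almost the same in sequence, as are the 2 beta genes, and how reads were shared out within each pair is uncertain. Nprl3, named here after its values were seen because the main alpha-globin enhancers lie in its introns, was also lower, at 167 scaled reads with GATA-1 WT and 30.7 with GATA-1 2RA.

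Heme synthesis was the list with the greatest share of its genes in the table: 15 of 23 (65.2%) were listed and every listed member was lower, with a median log2 change of -1.44. Alas2 (chrX:150547375-150570638), the erythroid enzyme that begins the pathway, was the gene lowered most in the whole table, from 1154 to 2.14 scaled reads, with 3 reads left and a ratio of 538-fold (184 to 2613). Its control level was 6.54 and its GATA-1 V205M level 34.7. The rest of the pathway differed by far less. Uros went from 348 to 67.2 and Alad from 510 to 221. Cpox, Ppox, Urod and Fech, the enzymes of the later steps, were lower by 2.20- to 2.57-fold. The mitochondrial carriers of the pathway were lower too: Slc25a38, which brings in glycine, went from 816 to 141, and Abcb10, an inner-membrane transporter, from 3195 to 844. Abcb10 with GATA-1 2RA was still well above its control level of 89.6, while Fech was close to its own, at 827. Glrx5, which helps assemble iron-sulfur clusters, went from 1939 to 593, and Clpx, the mitochondrial unfoldase that activates ALAS, from 279 to 126.

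Promoter sequence is shown for members whose windows hold a GATA motif, because GATA-1 binds such motifs. The windows are the 250 bases before the RefSeq start (GRCm38.p6), printed 5′ to 3′ on the strand of the gene, and capitals mark the letters NGATAN, with A or T as the first base and A or G as the last, on either strand. The first 5 are of genes lower with GATA-1 2RA. They are Alas2 at chrX:150547167-150547416 on the plus strand, Hba-a1 at chr11:32283422-32283671 on the plus strand, Pklr, the red cell pyruvate kinase, at chr3:89135892-89136141 on the plus strand, Rhag at chr17:40810899-40811148 on the plus strand and Kel at chr6:41704326-41704575 on the minus strand. The other 2 are of genes higher with GATA-1 2RA. These are P2rx1 at chr11:72998895-72999144 on the plus strand and Ptprc at chr1:138175127-138175376 on the minus strand.
Alas2: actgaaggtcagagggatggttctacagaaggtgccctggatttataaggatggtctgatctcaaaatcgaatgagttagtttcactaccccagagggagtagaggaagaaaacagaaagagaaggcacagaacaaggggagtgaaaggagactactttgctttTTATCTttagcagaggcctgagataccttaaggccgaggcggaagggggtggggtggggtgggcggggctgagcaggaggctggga
Hba-a1: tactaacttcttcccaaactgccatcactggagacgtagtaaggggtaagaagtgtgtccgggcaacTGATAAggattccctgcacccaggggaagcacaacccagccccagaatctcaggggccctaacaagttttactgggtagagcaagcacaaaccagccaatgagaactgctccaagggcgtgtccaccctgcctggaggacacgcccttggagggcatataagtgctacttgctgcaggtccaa
Pklr: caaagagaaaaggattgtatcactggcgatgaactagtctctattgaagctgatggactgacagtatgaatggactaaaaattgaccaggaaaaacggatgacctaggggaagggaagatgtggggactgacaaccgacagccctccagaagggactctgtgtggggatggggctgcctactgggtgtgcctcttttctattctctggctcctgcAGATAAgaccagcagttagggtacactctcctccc
Rhag: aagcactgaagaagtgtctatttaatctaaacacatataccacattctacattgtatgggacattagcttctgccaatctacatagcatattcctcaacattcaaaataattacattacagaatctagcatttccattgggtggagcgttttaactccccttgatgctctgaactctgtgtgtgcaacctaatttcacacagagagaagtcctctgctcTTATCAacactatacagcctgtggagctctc
Kel: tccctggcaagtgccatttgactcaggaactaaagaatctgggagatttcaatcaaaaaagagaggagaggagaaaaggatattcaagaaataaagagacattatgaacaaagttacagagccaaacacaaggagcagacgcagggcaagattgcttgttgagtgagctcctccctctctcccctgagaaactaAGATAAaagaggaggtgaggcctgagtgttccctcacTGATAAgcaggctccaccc
P2rx1: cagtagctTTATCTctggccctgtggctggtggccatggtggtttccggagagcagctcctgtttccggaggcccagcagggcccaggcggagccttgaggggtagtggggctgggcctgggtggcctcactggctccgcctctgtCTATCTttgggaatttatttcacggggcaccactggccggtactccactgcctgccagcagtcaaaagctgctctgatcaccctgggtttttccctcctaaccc
Ptprc: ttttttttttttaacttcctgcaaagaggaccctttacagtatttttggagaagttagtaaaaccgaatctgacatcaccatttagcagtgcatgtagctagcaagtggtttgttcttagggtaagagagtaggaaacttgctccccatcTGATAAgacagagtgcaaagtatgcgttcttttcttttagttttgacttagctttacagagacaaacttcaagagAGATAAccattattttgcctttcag
The capitals nearest to the start begin 86 bases before it in Alas2, 183 in Hba-a1, 35 in Pklr, 31 in Rhag, 19 in Kel, 104 in P2rx1 and 25 in Ptprc. Kel, P2rx1 and Ptprc hold 2 matches each. Such letters were not more frequent near the listed genes: 21.4% of 412 windows of lower genes and 19.4% of 443 windows of higher genes held a match, against 26.5% of all 32851 windows. Windows of listed genes had more G and C, with a mean of 59.0% for lower and 61.3% for higher genes against 53.2% for all. Across the lists with 8 or more listed genes the share ran from 0 of 10 windows for small GTPase genes, 1 of 11 for autophagy and 2 of 18 for integrin and actin genes to 7 of 16 for red cell surface, 2 of 4 for membrane skeleton and 5 of 9 for mast cell genes. A match is a stretch of letters and no evidence of binding, and GATA-1 also binds far from start sites.

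Genes of the red cell surface were lower in 13 of the 14 listed cases, out of 35 examined (median log2 change -2.10). Slc4a1 encodes band 3, the anion exchanger, and had 527 scaled reads with GATA-1 WT and 1.43 with GATA-1 2RA, a ratio of 369-fold (102 to 3048) that rests on 2 reads. Cldn13, a claudin of erythroid cells, went from 2109 to 40.01. These levels were below or close to the control, in which Slc4a1 stood at 5.80 and Cldn13 at 21.7. Car1, a carbonic anhydrase, and Rhag, the Rh-associated glycoprotein, were already abundant in the control, at 1562 and 1180 scaled reads. With GATA-1 WT they stood at 1097 and 2197, and with GATA-1 2RA at 56.4 and 84.3. Both were thus lower with GATA-1 2RA than in the control. In GATA-1 V205M they parted, with Car1 at 1264 and Rhag at 41.9. Kel, which carries the Kell blood group, went from 148 to 23.6, Ermap from 8087 to 3033 and Gypc from 635 to 224. The exception was Abcc4, a transporter of cyclic nucleotides and other anions, which was higher, at 72.4 and 169.

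The membrane skeleton beneath the surface was lower in 6 of 8 listed genes, of 21 examined (median log2 change -2.21). Add2, beta-adducin, which caps actin filaments and joins them to spectrin, went from 925 to 4.29 scaled reads, a ratio of 216-fold (98.9 to 589). Spna1, the red cell alpha-spectrin, went from 295 to 34.3, while Spna2, the alpha-spectrin of other cell types, went the other way, from 9.45 to 125. The 2 spectrin genes thus differed in opposite directions. Ank1, which ties spectrin to band 3, went from 333 to 116, Epb4.9, dematin, from 152 to 19.3 and Stom, stomatin, from 714 to 85.0. Actb, beta-actin, was the other higher member, at 17816 and 41435 scaled reads.

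Other genes of late red cell maturation were lower in 14 of 15 listed cases, of 52 examined, with a median log2 change of -2.59. Pklr, the pyruvate kinase of red cells and liver, went from 350 scaled reads to 0.714, a single read (ratio 490-fold, 87.6 to 19395), against 204 in the control. Slc38a5, a glutamine transporter, went from 252 to a single read (ratio 353-fold, 62.9 to 13963), against 2.26 in the control. Hemgn, hemogen, an erythroid nuclear protein, went from 744 to 75.01. Trim10, a RING finger protein of erythroid cells, went from 93.8 to 2.14. Prdx2, the main peroxiredoxin of red cells, went from 8249 to 2756, which was still above its control level of 1916. Iron genes followed in 4 of 25: Tfrc, the transferrin receptor, went from 4018 to 1306, Slc25a37, mitoferrin, from 443 to 95.02, Slc40a1, the iron exporter ferroportin, from 332 to 129 and Blvrb, biliverdin reductase B, from 7133 to 1343.

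**Figure D2:**
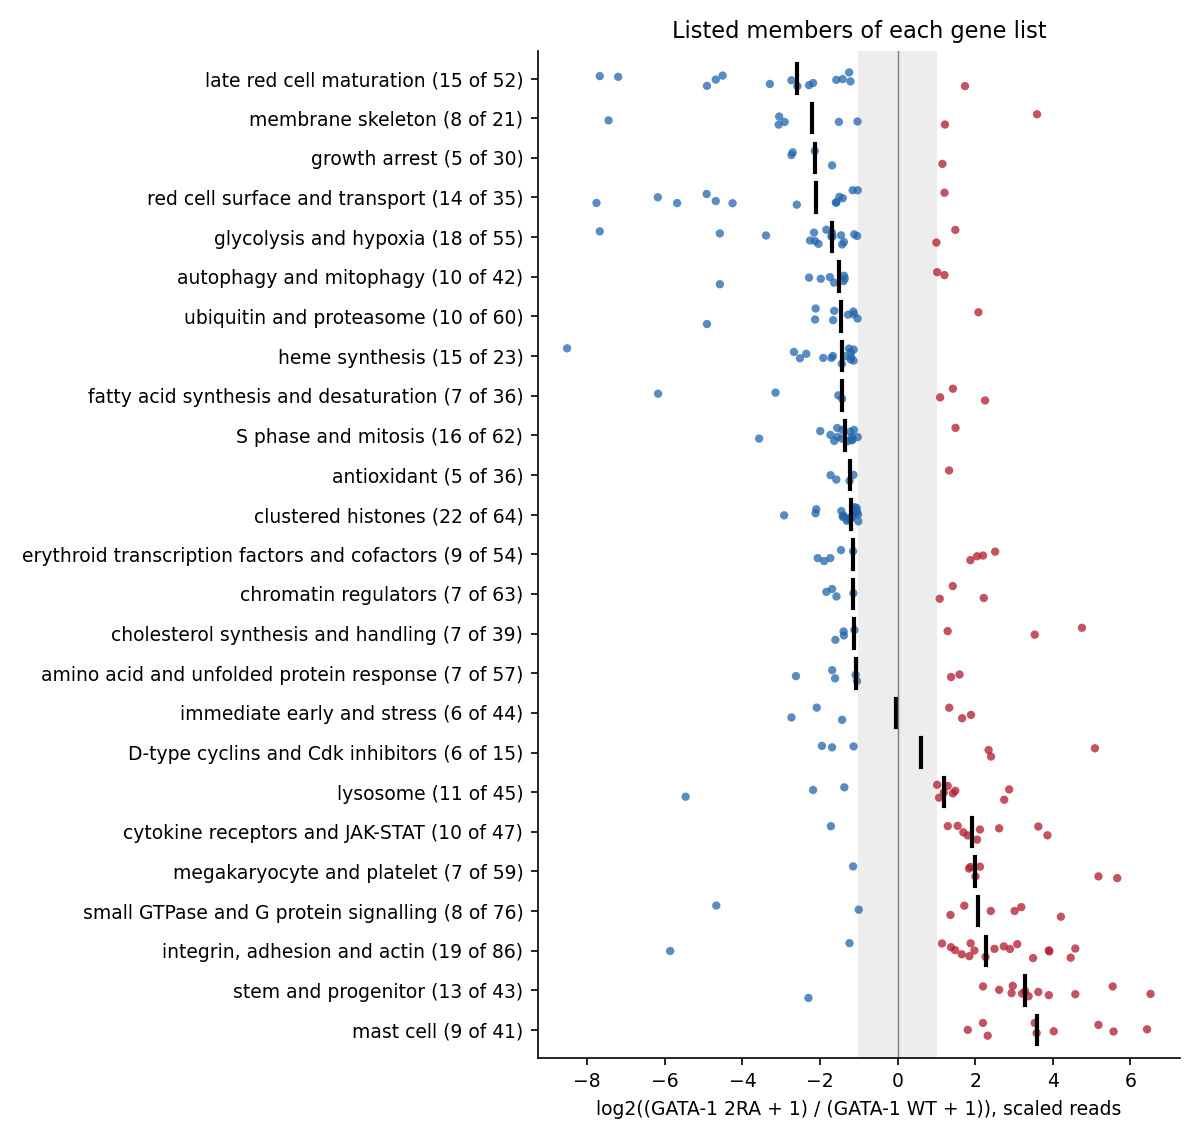
Log2 change of each listed gene with GATA-1 2RA against GATA-1 WT (x axis) in 25 gene lists with 5 or more listed genes (y axis, listed of examined genes in brackets), with the list's median as a bar and the unlisted range within 2-fold shaded. Heme synthesis and clustered histones have lower members alone, and the mast cell list has higher members alone.

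Erythroid transcription factors went both ways, with 5 lower and 4 higher among 9 listed of 54 examined. Klf1 (chr8:84901928-84905291), which activates adult beta-globin and much of the erythroid program, went from 1418 to 381 scaled reads, against 462 in the control and 382 with GATA-1 V205M. Gfi1b, a repressor needed in erythroid and megakaryocytic cells, went from 1568 to 470, under its level of 972 in the control and 966 with GATA-1 V205M. Tfdp2, an E2F partner of maturing erythroblasts, went from 197 to 46.4, and Nfe2 from 528 to 238. The 4 higher members included Myb and Fli1, factors of earlier or other cells. Myb, a factor of proliferating progenitors, went from 87.5 to 406, next to 416 in the control and 408 with GATA-1 V205M. Fli1, an ETS factor of megakaryocytes, went from 89.4 to 331, above 36.4 in the control and 47.6 with GATA-1 V205M. Stat5a, which transmits cytokine signals, went from 40.9 to 172, and Cbfb, the partner of RUNX1, from 8.82 to 55.0.

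Glycolysis and hypoxia genes formed the largest group of metabolic genes that were lower, with 16 lower and 2 higher among 18 listed of 55 examined (median log2 change -1.70). Glycolysis turns glucose into pyruvate and lactate and is the only source of ATP in mature red cells. Slc2a1, the glucose transporter GLUT1, went from 306 to 67.9 scaled reads, whereas Slc2a3, GLUT3, was not listed, at 1440 and 1568. Enzymes from early to late steps were listed. Gpi1, Pfkl, Pfkm and Pfkp, Aldoa, Tpi1, Pgk1, Pkm2 and Ldha were all lower, by 2.17-fold for Aldoa to 4.79-fold for Ldha, which went from 20748 to 4333. Pdk1, the kinase that keeps pyruvate out of the mitochondria, went from 227 to 20.7, and the regulatory enzyme Pfkfb4 from 82.5 to 19.3. Hif1a, the hypoxia factor itself, was at the limit on the higher side, at 132 and 265, and Pgm1, which links glycogen to glycolysis, went from 323 to 907. Ldha, Aldoa and Pkm2 were near their control levels with GATA-1 2RA, those levels being 3987, 17335 and 2056. With GATA-1 V205M they stood at 16141, 39198 and 4754, nearer to GATA-1 WT.

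Mitophagy genes were lower as well. Maturing red cells discard their mitochondria by autophagy, and 8 of the 10 listed autophagy genes were lower, of 42 examined. Bnip3, a mitochondrial receptor for autophagy, went from 760 to 30.7 scaled reads, a ratio of 24.7-fold (18.2 to 34.3), and its relative Bnip3l, or NIX, which is required to clear mitochondria from reticulocytes, went from 1128 to 231. Atg9a, Atg13, Atg4b, Gabarapl1, Nbr1 and Calcoco1, parts of the autophagosome machinery and its cargo receptors, were lower by 2.59- to 3.98-fold. The mitochondrially encoded mt-Nd1, a subunit of respiratory complex I, was higher, at 14715 and 40764, and was the single listed gene of 15 on that list. Ubiquitin and proteasome genes were lower in 9 of 10 listed cases, of 60 examined, among them Rnf19a, Cul4a and March8. Of 5 listed antioxidant genes, of 36 examined, 4 were lower, Prdx6, Prdx2, Gclm and Prdx3, while Prdx1 was higher, at 273 and 687. Reads of Prdx6 may include those of a near-identical copy.

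Lipid genes went both ways. Among desaturation and acyl transfer genes, Scd2, a fatty acid desaturase, went from 1939 to 218 scaled reads, Fads1 from 633 to 219 and Fads2 from 445 to 164. Mboat2, which acylates lysophospholipids, went from 123 to a single read (ratio 172-fold, 30.5 to 6824), although it stood at 299 with GATA-1 V205M. Higher were Cpt1a, which admits fatty acids to mitochondria for oxidation, from 95.1 to 457, Acadl, an oxidation enzyme, from 125 to 336, and Fasn, from 190 to 406. In cholesterol synthesis Sqle, Fdft1 and Sc4mol were lower, by 2.17- to 2.64-fold. Insig1, a brake on that pathway, was higher, with 1 read and 60 reads (ratio 68.1-fold, 11.8 to 2732), and so was Soat1, which stores cholesterol as esters, with 1 read and 25 reads.

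Cell cycle genes showed a change of D-type cyclins. Ccnd2 went from 573 to 2910 scaled reads, a ratio of 5.08-fold (4.73 to 5.47), and Ccnd3, the D-type cyclin of maturing erythroblasts, from 1705 to 440. Ccnd1 had 1 read with GATA-1 WT and 76 with GATA-1 2RA (ratio 86.2-fold, 15.01 to 3449), against 3.11 scaled reads in the control. Their partner kinase Cdk6 went from 40.3 to 218, next to 224 in the control. Cdkn1b, the inhibitor p27, went from 450 to 139 and Rb1 from 186 to 84.3. Ccnd2, Ccnd1 and Cdk6 were thus higher while the inhibitor and Rb1 were lower. S phase and mitosis genes were lower in 15 of 16 listed cases, of 62 examined, with a median log2 change of -1.36. They included Ccne1, the cyclin of S phase entry, from 257 to 20.7, Ccna2 from 5412 to 1355, Cdc6, which loads replication origins, from 2936 to 1003, and Cdc20 from 408 to 122. The exception was Uhrf1, which maintains DNA methylation, at 206 and 581. Growth arrest genes were lower in 4 of 5 listed cases, of 30 examined: Btg2 from 1120 to 167, Gadd45a from 150 to 22.1, Ccng2 from 110 to 24.3, and Cdkn1b. Listed genes of division and of arrest were thus mostly lower in the same library.

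Replication-dependent histone genes were lower in all 22 listed cases, of 64 examined, with a median log2 change of -1.19. The 5 linker histone genes included the 3 largest differences: Hist1h1c went from 7189 to 945 scaled reads, Hist1h1d from 2925 to 674 and Hist1h1e from 6335 to 1480. Core histone genes were lower by 2.02- to 2.69-fold, for example Hist1h2ak from 24270 to 9171 and Hist2h4 from 34924 to 15042. Most of these messages lack a poly(A) tail and are near-identical to each other, so their reads depend on the RNA selection and their split between copies is uncertain.

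Listed stem and progenitor genes went mostly the other way, in a list written with earlier results of these data known. Of 13 listed stem and progenitor genes, of 43 examined, 12 were higher (median log2 change 3.28). Kit (chr5:75574916-75656722), the stem cell factor receptor, went from 179 to 2218 scaled reads, a ratio of 12.4-fold (10.98 to 14.05). Gata2 (chr6:88193891-88207032), the GATA factor of progenitors, went from 54.8 to 514, a ratio of 9.39-fold (7.51 to 11.9). Both were near the control with GATA-1 2RA, where Kit stood at 2429 and Gata2 at 773. With GATA-1 V205M Kit stood at 1440 and Gata2 at 1316. Meis1, a homeodomain factor of stem cells, behaved otherwise: it went from 17.6 to 276 against 15.4 in the control and 57.2 with GATA-1 V205M. Bcl2, which blocks cell death, went from 8.82 to 75.7 against 3.65 in the control. Hoxc10 had 2 reads with GATA-1 WT and 146 with GATA-1 2RA (ratio 82.8-fold, 22.5 to 690), against 1.83 scaled reads in the control, whereas its neighbour Hoxc8 reached 27.1 scaled reads, under its control level of 107. Vim, the intermediate filament vimentin, went from 8.82 to 234, Ikzf2, the Ikaros family factor Helios, from 3.78 to 48.6 and Lmo4, a LIM-only protein, from 8.19 to 69.3. Ahnak, a giant scaffold protein, went from 3.15 to 379, a ratio of 120-fold (51.3 to 373). The lower member was Egfl7, from 183 to 36.4, which is also an endothelial marker.

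Genes of cytokine receptors and their signalling were higher in 9 of 10 listed cases, of 47 examined. Csf2rb2, a beta chain of the receptors for IL-3 family cytokines, went from 538 to 3306 scaled reads, above 240 in the control and 1015 with GATA-1 V205M. Csf2rb is almost the same in sequence, so some of these reads may be its own. Il4ra, the IL-4 receptor chain, went from 9.45 to 151, Tgfbr1 from 63.0 to 206 and the Src family kinase Lyn from 66.8 to 294. Socs2 and Spred1, which dampen such signals, were higher too, at 75.6 and 186, and 45.3 and 134. Ifnar2, an interferon receptor chain, was the lower member, at 134 and 40.01. Of the Notch, Wnt, TGF-beta and BMP list 4 genes were listed of 54 examined, or 7.41% against 7.38% of all tested genes. All 4 were higher: Tgfbr1, which is on both lists, Smad3, Id1 and Ski.

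**Figure D3:**
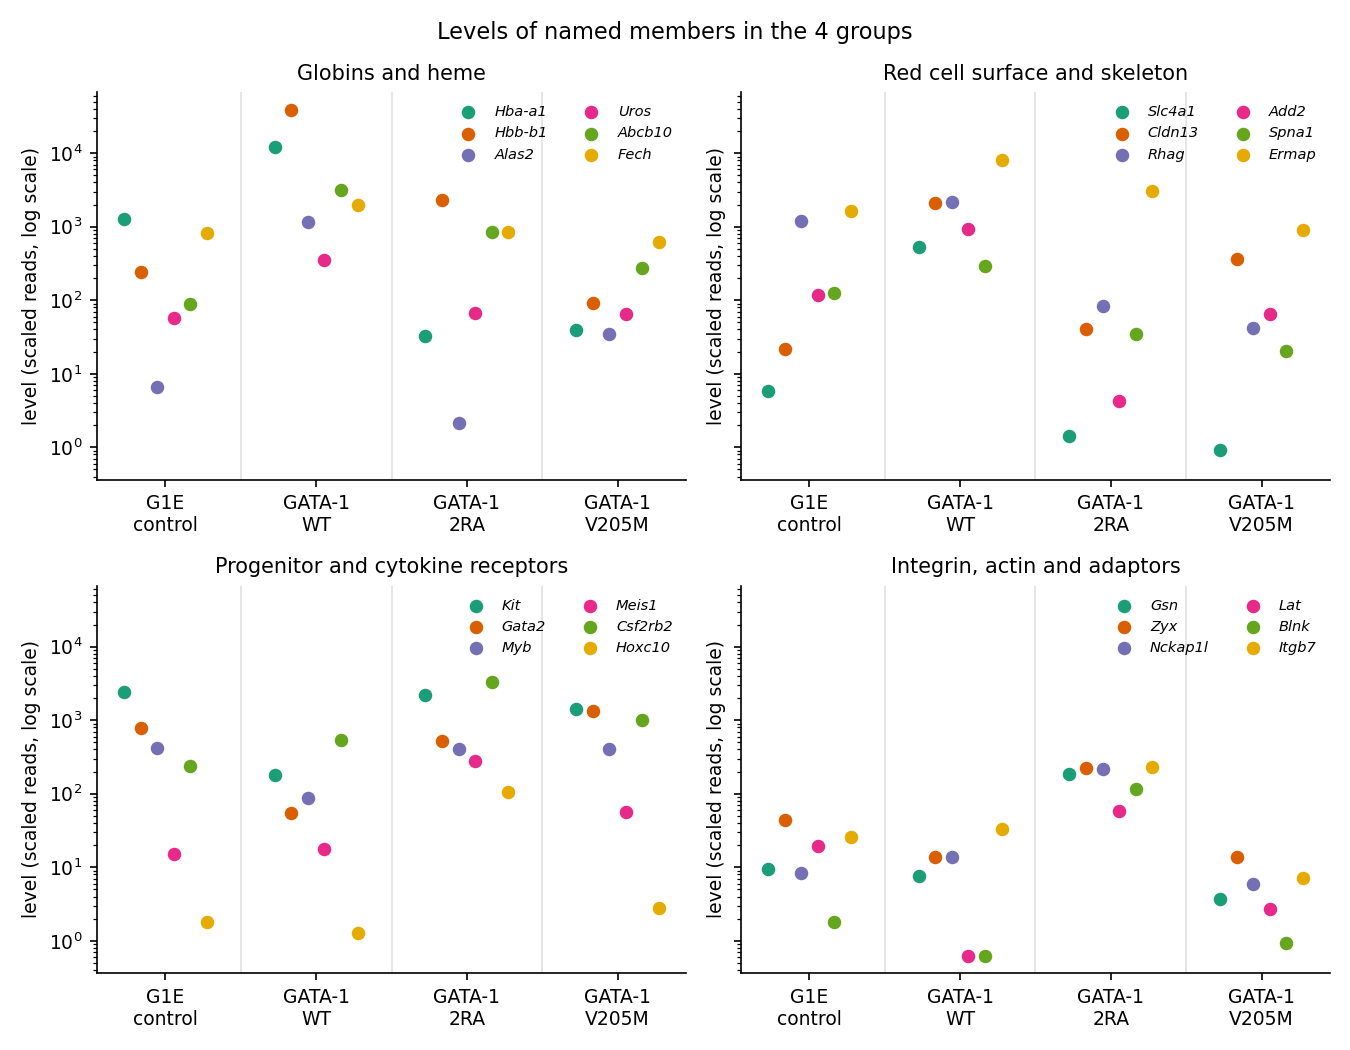
Levels of 24 named members in each of the 4 groups (x axis) in scaled reads on a log scale (y axis), 1 point per gene and group, where the control and GATA-1 V205M levels are the authors' means. With GATA-1 2RA, Kit, Gata2 and Myb lie near the control, Hba-a1, Alas2 and Rhag below it, and Gsn, Nckap1l, Blnk and Hoxc10 above all other groups. Alas2 rests on few reads with GATA-1 2RA, at 2.14 scaled reads.

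Mast cell genes were higher in all 9 listed cases, of 41 examined, with a median log2 change of 3.58, but 6 of the 9 rest on 3 or fewer reads with GATA-1 WT. Tpsab1, a tryptase, had 1 read with GATA-1 WT and 195 with GATA-1 2RA (ratio 221-fold, 39.2 to 8781), against 55.1 scaled reads in the control and 474 with GATA-1 V205M. Alox5 and Alox5ap, which make leukotrienes, reached 136 and 128 scaled reads, against 152 and 79.98 in the control. Srgn, serglycin, which packs granules, went from 215 to 1077, and Hdc, which makes histamine, from 1.89 to 33.6. Il1rl1, the IL-33 receptor, went from 11.3 to 42.2, far under 163 in the control and 882 with GATA-1 V205M. The defining markers did not all return. Cpa3, the mast cell carboxypeptidase, had 7 reads with GATA-1 2RA against 2795 scaled reads in the control, Ms4a2, the IgE receptor beta chain, had 3 reads, and Gzmb had 1. The 7 mast cell markers with a level in both groups summed to 195 scaled reads with GATA-1 WT and 2440 with GATA-1 2RA, of which Kit alone gave 2218.

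Megakaryocyte and platelet genes were higher in 6 of 7 listed cases, of 59 examined. Plek, pleckstrin, went from 368 to 1319 scaled reads, P2rx1, an ATP-gated channel of platelets, from 3.15 to 209 (ratio 66.2-fold, 28.1 to 206), and Nbeal2, needed for platelet granules, from 27.7 to 114. Lat, an adaptor of platelets, mast cells and T cells, had 1 read and 81 reads. Of 14 megakaryocyte markers Plek alone had a level in both groups, and Itga2b, Pf4, Gp9, Vwf and the rest were not listed. No neutrophil or macrophage marker of 10 was listed either. Single genes of other lineages were higher: Btk, the kinase of B cell and mast cell receptors, went from 95.7 to 497, and Blnk, its adaptor, had 1 read and 161 reads (ratio 183-fold, 32.3 to 7258). Ptprc, the leukocyte phosphatase CD45, had 1 read and 96 reads (ratio 109-fold, 19.1 to 4345). The stromal list gave Col5a1, which was lower, with 165 reads and 1 read. The part of other cell types in these differences was not tested.

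Genes of integrin adhesion and the actin cytoskeleton were higher in 17 of 19 listed cases, of 86 examined, with a median log2 change of 2.27. Integrins connect the outside of the cell to actin, and here the receptor, the linkers and the actin regulators were listed together. The integrin chain Itgb7 went from 33.4 to 228 scaled reads, and the adhesion receptor Icam1 from 8.82 to 82.2. Talin, Tln1, which activates integrins, went from 608 to 1576, zyxin, Zyx, of focal adhesions, from 13.9 to 222 and filamin A, Flna, which crosslinks actin, from 64.9 to 241. Gsn, gelsolin, which severs actin filaments, went from 7.56 to 187, a ratio of 24.8-fold (13.9 to 48.5). Coro1a, Cotl1, Arpc1b and Nckap1l, which shape branched or dynamic actin in blood cells, were higher by 2.79- to 15.9-fold. Several of these exceeded the control as well: Gsn stood at 9.45 there, Nckap1l at 8.48 against 220 with GATA-1 2RA, and Cotl1 at 58.6 against 419. Actn4, an actin crosslinker, was among the 2 lower members, from 1461 to 617.

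Signalling and lysosome genes leaned the same way. Of 8 listed genes of small GTPase and G protein signalling, of 76 examined, 6 were higher. Pik3cg, the PI3-kinase driven by G proteins, went from 25.8 to 216 scaled reads, the G protein subunits Gng2 from 17.0 to 163 and Gnb4 from 41.6 to 224, and Rgs19, which shuts G proteins off, from 5.67 to 122. Adcy6, an adenylyl cyclase, went from 42.8 to a single read. Lysosome genes were higher in 8 of 11 listed cases, of 45 examined. Laptm5, a lysosomal membrane protein of blood cells, went from 448 to 3013 and Man2b1, lysosomal mannosidase, from 126 to 930. The protease Ctsl went the other way, from 169 to 2.86, a ratio of 59.3-fold (22.9 to 219).

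Outside the lists, Npl (chr1:153503015-153550045), which cleaves sialic acid, had the largest increase of the table: 1 read with GATA-1 WT and 557 with GATA-1 2RA (ratio 632-fold, 113 to 25000), or 398 scaled reads, against 50.7 in the control and 110 with GATA-1 V205M. Cited1, a CBP/p300 coactivator, had 1 read and 360 reads (ratio 408-fold, 72.8 to 16173), and the transporter Slc45a3 1 read and 207 reads (ratio 235-fold, 41.7 to 9319). These 3 genes share a GATA-1 WT level at the lowest deposited count. Plekhg3 had 1 read and 202 reads, the phosphatase Dusp3 2 and 217, Fgl2, a fibrinogen-like protein, 5 and 326, and Rnf157 1 and 85. Fgl2 was near the lowest count in the control and GATA-1 V205M too, at 1.83 and 1.43 scaled reads. Among the lower, Ndufa4l2, a hypoxia-induced mitochondrial protein, had 250 reads and 1 read, Slc30a10, a manganese exporter, 777 and 7, and the predicted gene Gm16439 572 and 6. A total of 259 listed genes belonged to a list and 695 to none. Of genes with a matched annotation, 402 higher and 442 lower were protein coding, and 20 higher and 67 lower were pseudogenes, whose reads may belong to their parent genes.

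Other lists showed no shared direction or few listed genes. Of 44 immediate early and stress genes examined 6 were listed, 3 higher and 3 lower, with Jun at 33.4 and 126 scaled reads and Dusp1 at 188 and 43.6. Of the amino acid and unfolded protein response list 5 of 7 were lower, of 57 examined. Among them were Ppp1r15a, which restarts translation after stress, from 1377 to 223, and Eif2ak1, the heme-regulated kinase HRI, from 452 to 147. The folate enzymes Mthfd1 and Shmt1 were higher. Chromatin regulators were 3 higher and 4 lower, of 63 examined. Dnmt3b, a DNA methyltransferase, went from 11.3 to 56.4, and the demethylases Kdm3a and Kdm5b from 639 to 178 and from 350 to 116. Death genes were 3 higher, among them Bid and Bcl2, and 1 lower, Bax, of 41 examined. Interferon genes gave Tapbp and Usp18, both higher, of 42 examined. The listed share of these lists ran from 4.76% for interferon to 13.6% for immediate early genes, against 7.38% of all tested genes.

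For 762 of the 954 genes a control level could be taken from the authors' other tables, which share these libraries, so the following are levels set side by side and no separate evidence. Among the lower genes GATA-1 2RA stood within 2-fold of the control for 251 of 412, more than 2-fold below it for 98 and above it for 63. With the limit at 1.5-fold these became 169, 124 and 119, so the split depends on the limit. Below the control were both alpha-globins, Slc4a1, Add2 and Pklr, though Slc4a1 rests on few reads, at 1.43 scaled reads with GATA-1 2RA. For 65 of these 98 genes GATA-1 WT was itself within 2-fold of the control, as it was for Pklr, Rhag and Car1. That GATA-1 2RA stood below both follows from how the 98 genes were chosen. Above the control, at an intermediate level, were both beta-globins, Abcb10, Btg2, the butyrophilin Btn1a1 (281 with GATA-1 WT, 9.29 with GATA-1 2RA and 1.83 in the control) and the exchange factor Kalrn (215, 11.4 and 3.23). Lists differed in this: of 15 heme genes 9 were near the control, 3 above and 2 below, and of 16 S phase and mitosis genes 11 lower ones were near it and 4 above it.

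**Figure D4:**
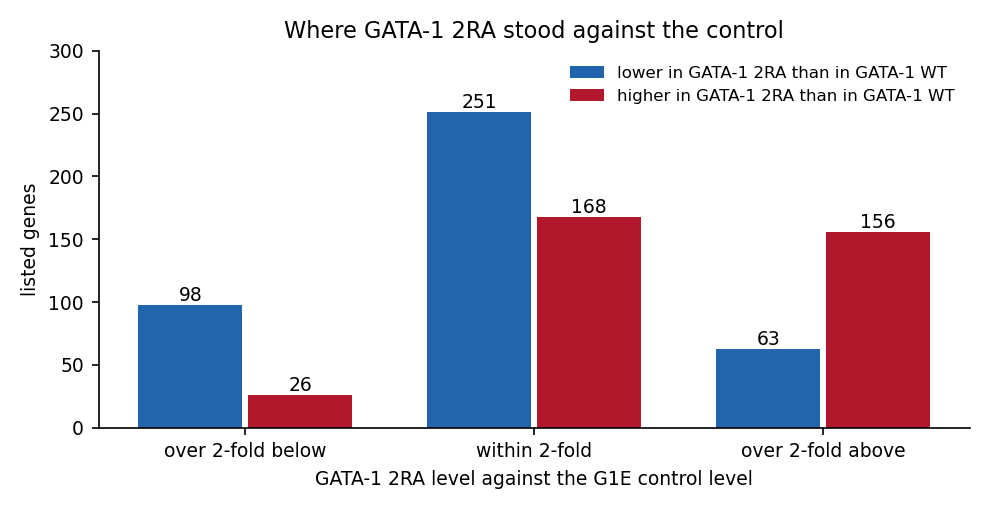
Number of listed genes (y axis) by whether the GATA-1 2RA level was over 2-fold below, within 2-fold of or over 2-fold above the control level (x axis), for the 762 genes with a control level. At this limit 251 lower genes were near the control, and higher genes divided between near (168) and above (156).

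Among the higher genes GATA-1 2RA stood within 2-fold of the control for 168, above it for 156 and below it for 26, or for 132, 171 and 47 with the limit at 1.5-fold. Near the control were Kit, Gata2, Myb, Vim, Alox5 and Papss2, which makes the sulfate donor of sulfation and went from 11.3 to 349 against 405 in the control. Above it were Npl, Cited1, Ahnak, Tpsab1, Blnk, Fgl2, Meis1, Csf2rb2 and Fli1. For 95 of these 156 genes GATA-1 WT was within 2-fold of the control. That GATA-1 2RA stood above both follows from how the 156 genes were chosen. GATA-1 V205M was itself over 2-fold above GATA-1 WT for 46 of the 147 with a GATA-1 V205M level, Meis1 among them. By list, 5 of 12 higher progenitor genes, 7 of 17 higher integrin and actin genes and 5 of 6 higher megakaryocyte genes were above the control, as were 3 of 9 mast cell genes. Below it, at a partial level, were Soat1, the zinc transporter Slc30a2 (2.52 with GATA-1 WT, 39.3 with GATA-1 2RA and 229 in the control), Tmem44, Hoxc8 and Il1rl1. Against GATA-1 V205M, GATA-1 2RA was over 2-fold higher for 177 of the 351 higher genes with such a level and within 2-fold for 157, and among 416 lower genes it was within 2-fold for 266 and lower for 124. A total of 40 higher and 56 lower genes were listed in none of the authors' other tables.

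Some chromosomes held mostly genes of 1 direction. On chromosome 7 there were 21 higher and 76 lower genes, on chromosome 13 there were 5 and 37, on chromosome 4 there were 52 and 25, and on chromosome 12 there were 37 and 10. In the same order these chromosomes hold 2021, 836, 1327 and 643 annotated protein-coding genes. The regions that follow were chosen after the counts of listed genes were seen. The first 60 Mb of chromosome 7 held 2 higher and 51 lower genes, and the rest of it 19 and 25. In that stretch the median log2 change was -1.52, and GATA-1 2RA was near the control there, with a median log2 difference of 0.18 over 40 genes. GATA-1 WT was above the control there by a median of 1.66. The median difference of GATA-1 V205M from GATA-1 WT was -1.59 over 38 genes. Both medians use the GATA-1 WT library on which the genes were selected, so they cannot show that GATA-1 WT stood apart there. On chromosome 13 the stretch from 20 to 24 Mb held 22 lower genes, of which 21 were histone genes. On chromosome 12 the 47 listed genes had a median log2 change of 1.38. Against the control the median log2 difference there was 0.24 for GATA-1 2RA and -1.03 for GATA-1 WT, over 37 genes. GATA-1 V205M differed from GATA-1 WT by a median of 1.16 over 42 genes. From 100 to 160 Mb chromosome 4 held 37 higher and 14 lower genes. Medians against the control were 0.72 for GATA-1 2RA and -0.21 for GATA-1 WT, over 43 genes. The limit given for chromosome 7 holds for these medians too.

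**Figure D5:**
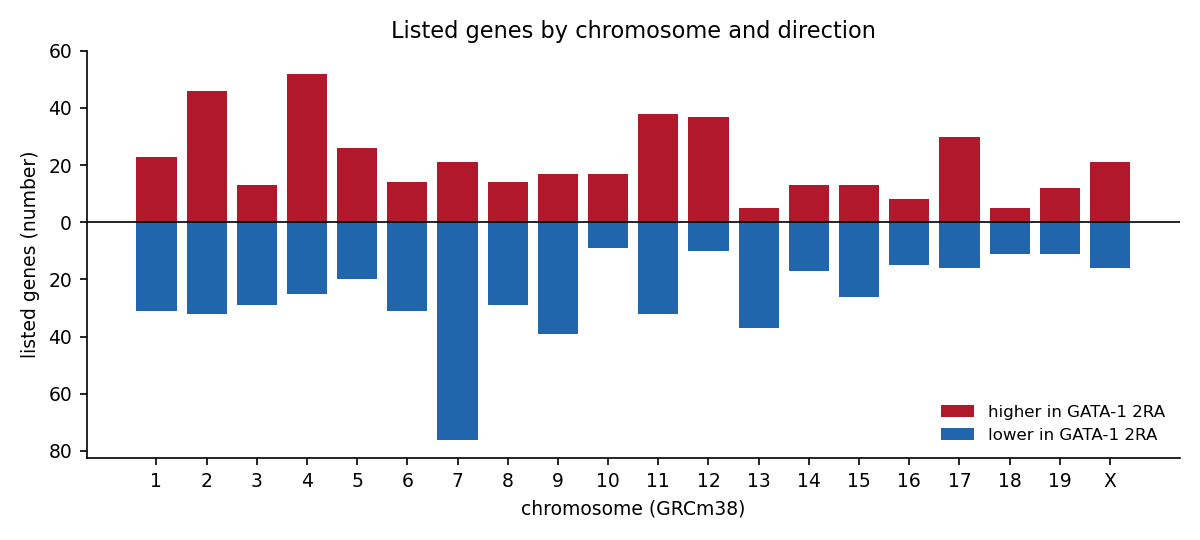
Number of listed genes on each chromosome (x axis, GRCm38), with genes higher with GATA-1 2RA above 0 and lower genes below 0 (y axis). Chromosome 7 has 76 lower genes, and chromosomes 4 and 12 have 52 and 37 higher genes.

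Among the 10 highest levels of the table were those of Aldoa, Actb, mt-Nd1, Hbb-b1, Hist2h4, Hist1h2ak, Eef2, Mt1 and Ldha. Mt1, metallothionein, went from 4100 to 21169 scaled reads against 35606 in the control, and Eef2, the elongation factor, from 21429 to 10451 against 7522. Nearest to the 2-fold limit were Hif1a, Prkar2b (333 and 672) and Adk (2577 and 5209) on the higher side and Rpl13a (1751 and 874), Txnl1 (772 and 386) and Fam172a (280 and 140) on the lower. Genes outside the filter have levels only through the authors' other tables: Gata1 is an example within 2-fold, and Tmem184a was past 2-fold, at 591 and 246 scaled reads, without being listed.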

How the data were processed

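RNA of G1E cells was sequenced on an Illumina HiSeq from TruSeq libraries of total RNA, per the labels' protocols, with 1 sample in each of 4 groups. The submitters' processing notes name mm10 as the build and the tools Cuffdiff, Cufflinks, TopHat and deepTools, with role and version not given in the sources used here. As deposited, the signal is the authors' level per gene, reads divided by a size factor (1.59 for GATA-1 WT and 1.40 for GATA-1 2RA). The control and GATA-1 V205M levels are the authors' means of 2 count columns. Whole reads were recovered from all values of GATA-1 WT and GATA-1 2RA within a tolerance of 1e-06. The deposited fold ratio, log2 value, p-value and adjusted p-value of the authors served only to check the filter.

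The members and gene lists were chosen with earlier results of these data known. A pseudocount of 1 scaled read was added before taking log2. Exact binomial 95% intervals of the share of reads gave the intervals of ratios. Named genes were Gata1, Gata2, Kit, Zfpm1 and Esr1, the 15 largest changes each way among genes reaching 10 scaled reads in a group, list members, the 10 largest changes per class against the control, the 10 highest levels and the 3 genes nearest to 2-fold each way. A few genes the rule selects are not reported here, and genes outside it are named as markers or where stated. GENCODE M21 on GRCm38 gave coordinates for 939 of 954 genes, and RefSeq promoters matched 649. The scripts used Python 3.11.15, R 4.3.3 and edgeR 4.0.16, the last only for alternatives with an assumed biological coefficient of variation (BCV), and were tested on simulated data.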

Additional observations from a re-analysis of the deposited data

How the results depend on the processing

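With 1 sample per group, depth and the lowest deposited count of 1 limit the ratios of the 74 genes with 3 or fewer reads in a group, and the spread between cultures is unknown. No paired analysis was possible because each group has 1 sample. Trimmed mean (TMM) factors over 1554 genes with both levels, themselves chosen by the authors' filters, moved the scaling by 0.24 on the log2 scale towards GATA-1 2RA, and by less for low levels after the pseudocount. Past 2-fold were then 431 higher and 387 lower of the listed genes. The count of higher genes could not change, because only genes already past 2-fold were rescaled. With these factors median log2 changes became -1.20 for heme synthesis, -0.91 for erythroid transcription factors, -1.12 for S phase and mitosis, -1.46 for glycolysis, -0.95 for histones, 1.43 for lysosome and -1.22 for ubiquitin genes, and that of immediate early genes changed sign, from -0.05 to 0.19. With a pseudocount of 10 the mast cell median fell to 2.02. None of the 309 named results changed sign under TMM factors or a pseudocount of 0 or 10, while 126, 10 and 71 moved beyond their counting interval.

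By the authors' ratio, with no pseudocount, 210 genes were higher and 153 lower at 4-fold or more. With an assumed BCV of 0.4, edgeR with Benjamini-Hochberg adjustment over the listed genes left 178 higher and 136 lower. That fit compares 2 libraries, over genes already selected on this contrast, so its counts are no check of the differences. Set at 1.5-fold, the classes against the control gave 47 higher genes below it and 119 lower genes above it.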

Other observations

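Promoter windows were also searched, on both strands, for a CACC motif, CCNCACCC, and an ETS motif, NGGAAG with A or C as the first base, which KLF1 and ETS factors such as FLI1 are known to bind. A CACC match lay in 19.4% of 412 windows of genes lower with GATA-1 2RA and in 23.0% of 443 windows of higher genes, against 14.9% of all 32851 windows. An ETS match lay in 42.0% and 47.6%, against 39.2%. Windows of listed genes were richer in G and C, and its part in these shares was not tested.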
